A study of Mus musculus with 20 samples.

Results

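The genes described here are 7 CXC chemokines of the mouse: Cxcl1, Cxcl2, Cxcl3, Cxcl9, Cxcl10, Cxcl11 and Cxcl16. They were found by symbol, with the RefSeq transcript of the highest total count taken for each, and all 7 were present among the 24342 symbols of the count table. All 7 were also among the 12013 genes tested. Cxcl1, Cxcl3, Cxcl9 and Cxcl11 had 0 to 12 counts per library without LPS and passed the filter on low counts only through the LPS libraries.

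The cells were bone marrow-derived macrophages of C57BL/6 mice, grown for 7 to 8 days in 15% L929-conditioned medium, which supplies M-CSF. During this time they received 1 µM SGC0946, a small-molecule inhibitor of the histone H3K79 methyltransferase DOT1L, or the solvent DMSO. They were then left unstimulated (4 libraries with DMSO and 4 with SGC0946), given 10 ng/mL lipopolysaccharide (LPS) for 3 h (3 and 3), or given 2 µM GW3965, an agonist of the liver X receptors (LXR), for 17 h (3 and 3). A replicate number stands for 1 of 4 mice, whose marrow supplied both arms. Depth was 8.17 to 13.33 M counts per library over the 24342 symbols. The macrophage list was measured in full, 10 of 10 genes tested, and summed to 13295 to 22423 CPM. In 6 titles, those of the first 3 unstimulated DMSO libraries and of all 3 DMSO libraries with GW3965, the submitters added the word reanalyzed. It cannot be told apart from the inhibitor after GW3965; among unstimulated controls DMSO replicate 4 is without it, and no LPS library has it.

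Chemokines are small secreted proteins that direct leukocytes along concentration gradients. Cxcl1, Cxcl2 and Cxcl3 carry the glutamate-leucine-arginine (ELR) motif, act on the receptor CXCR2 and draw neutrophils; macrophages make them within hours of Toll-like receptor signalling, under NF-kB. Cxcl9, Cxcl10 and Cxcl11 lack that motif, are known as interferon-inducible chemokines and act on CXCR3 of activated T and NK cells. Cxcl16 is made as a transmembrane protein that also binds oxidised lipoprotein as a scavenger receptor, and its shed form is the ligand of CXCR6.

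The promoters of 5 LPS-induced members are shown to set the matches to NF-kB and interferon motifs side by side. Sequences are the 250 bases before the start site in RefSeq GRCm38.p6, written on the strand of the gene. Capitals mark matches to the NF-kB consensus and, first in Cxcl10, to the interferon-stimulated response element (ISRE).
Cxcl1: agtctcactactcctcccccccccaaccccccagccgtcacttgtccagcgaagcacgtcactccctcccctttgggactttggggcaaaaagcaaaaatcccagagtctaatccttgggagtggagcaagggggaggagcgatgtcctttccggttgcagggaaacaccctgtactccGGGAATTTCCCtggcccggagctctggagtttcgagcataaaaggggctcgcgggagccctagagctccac
Cxcl2: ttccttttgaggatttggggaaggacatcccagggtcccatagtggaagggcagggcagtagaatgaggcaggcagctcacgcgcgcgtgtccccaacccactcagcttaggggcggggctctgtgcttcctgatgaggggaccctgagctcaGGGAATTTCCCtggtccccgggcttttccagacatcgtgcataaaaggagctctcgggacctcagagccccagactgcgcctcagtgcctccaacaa
Cxcl3: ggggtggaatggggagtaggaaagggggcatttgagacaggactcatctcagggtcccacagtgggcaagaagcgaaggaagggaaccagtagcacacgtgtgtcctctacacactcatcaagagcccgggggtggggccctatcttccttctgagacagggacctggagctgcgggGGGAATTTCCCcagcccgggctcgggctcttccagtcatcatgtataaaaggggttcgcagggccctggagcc
Cxcl9: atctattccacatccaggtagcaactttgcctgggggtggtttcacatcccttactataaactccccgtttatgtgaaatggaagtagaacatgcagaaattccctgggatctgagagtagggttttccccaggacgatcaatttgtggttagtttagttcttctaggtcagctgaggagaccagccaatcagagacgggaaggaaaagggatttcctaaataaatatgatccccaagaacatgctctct
Cxcl10: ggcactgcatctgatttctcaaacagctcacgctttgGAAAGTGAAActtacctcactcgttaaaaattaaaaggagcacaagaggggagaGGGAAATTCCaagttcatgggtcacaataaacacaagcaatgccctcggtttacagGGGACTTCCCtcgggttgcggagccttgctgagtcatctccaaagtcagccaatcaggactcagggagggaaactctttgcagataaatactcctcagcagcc
These windows lie at chr5:90890995-90891244 (Cxcl1), chr5:90903649-90903898 (Cxcl2), chr5:90785851-90786100 (Cxcl3), chr5:92328080-92328329 (Cxcl9) and chr5:92348890-92349139 (Cxcl10). The first 3 are on the plus strand and Cxcl9 and Cxcl10 on the minus strand. Cxcl11 and Cxcl16 were not matched.

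Cxcl1, Cxcl2 and Cxcl3 each hold the same 10 letters, GGGAATTTCC, starting 71, 97 and 73 bases before the start site. These letters were picked after reading the promoters, and 28 of 32851 promoters of the same length (0.0852%) hold them on either strand. The NF-kB consensus as a whole was found in 3.90% of promoters and in 4 of the 5 shown, Cxcl9 being without it. Cxcl10 holds it at 2 places, GGGAAATTCC and GGGACTTCCC, and in addition an ISRE match, GAAAGTGAAA, which 2.98% of promoters share, and an AP-1 match to TGANTCA, which 6.75% share. TTCNNNGAA, the element of interferon-gamma signalling known as GAS, was in none of the 5 and in 7.02% of promoters. Both strands were searched. A match is a description of letters, not of binding.

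Cxcl3, Cxcl1 and Cxcl2 lie within 119.8 kb of chromosome 5, with Cxcl15 between them, and Cxcl9, Cxcl10 and Cxcl11 within 42.0 kb of the same chromosome. Cxcl16 lies apart, at chr11:70454389-70459984. Cxcl11 is annotated as a transcribed pseudogene with a non-coding RefSeq transcript. This is the known C57BL/6 allele, whose reading frame is broken, so its values below are RNA levels of a gene that gives no full chemokine in this strain. Reads were 50 bases long. Of all 50-base windows of a transcript, 5.75% in Cxcl2 and 6.31% in Cxcl3 occur in the other of the pair, so a part of their reads cannot be assigned. Cxcl16 shares 19% of its windows with Zmynd15 and Cxcl10 8.04% with Art3, genes on the opposite strand. An antisense gene model, Gm2673, covers 41.7% of the Cxcl11 exon bases, taken over all annotated Cxcl11 transcripts. The Cxcl11 transcript used here shares 0 of its 1532 windows with transcripts of another gene, on either strand. The strand setting of the counting is not given in the sources used here, so sense and antisense reads cannot be told apart.

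In unstimulated DMSO macrophages Cxcl16 was the most abundant of the 7 members and Cxcl10 came after it. These ranks hold among the 7 only, as the CXC ligand Pf4, described below, stood above both. On the deposited RPKM scale, which accounts for transcript length, Cxcl16 stood at 31.4 ± 5.36 (SD, n = 4), Cxcl10 at 9.33 ± 2.09 and Cxcl2 at 1.13 ± 0.263. Cxcl1 was at 0.202 ± 0.0974, Cxcl9 at 0.141 ± 0.0786 and Cxcl11 at 0.0575 ± 0.0441 RPKM, from 10, 21 and 5 counts, and neighbours in this order did not differ beyond their spread. Cxcl3 had 0 counts in all 4 libraries. With SGC0946 the order of the leading members was the same, with Cxcl16 at 43.6 ± 4.31, Cxcl10 at 10.6 ± 5.18 and Cxcl2 at 1.26 ± 0.266 RPKM.

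After LPS the order of the 7 was another one and Cxcl10 stood far above the rest. In DMSO cells it reached 5604 ± 178 RPKM (SD, n = 3). Cxcl9 (139 ± 9.12), Cxcl2 (138 ± 18.2) and Cxcl16 (117 ± 11.9) followed. The libraries of Cxcl2 overlapped with those of both others, while the lowest Cxcl9 library (130) was just above the highest of Cxcl16 (128). Below them came Cxcl11 at 38.8 ± 1.46 and Cxcl1 at 32.8 ± 3.20 RPKM, whose libraries did not overlap, and Cxcl3 was lowest at 6.94 ± 0.552. In SGC0946 cells Cxcl10 stood at 5294 ± 229, Cxcl9 at 196 ± 37.2, Cxcl16 at 118 ± 4.16 and Cxcl2 at 116 ± 18.6 RPKM. Cxcl11 was at 63.6 ± 4.75, Cxcl1 at 31.2 ± 12.8 and Cxcl3 at 8.14 ± 1.71. In the inhibitor arm the 3 Cxcl9 libraries were above all of Cxcl2 and Cxcl16, and Cxcl2 and Cxcl16 did not differ beyond their spread.

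**Figure D1:**
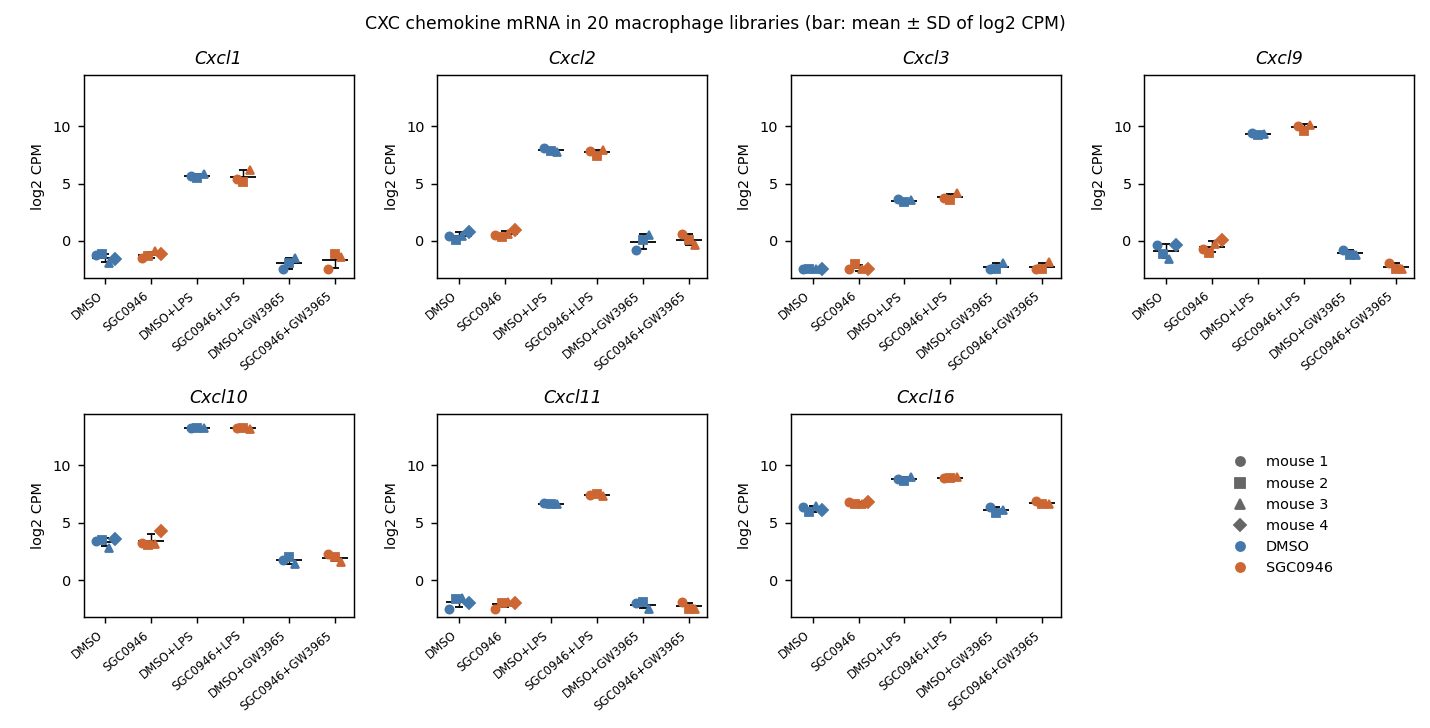
Level of each CXC chemokine in all 20 libraries, as log2 CPM (counts scaled to library size, with 2 counts added on average) against the 6 groups. Points are libraries, shaped by mouse and coloured by arm, and bars are the mean ± 1 SD. Every chemokine stands higher in all LPS libraries, and Cxcl16 covers the smallest range.

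All 7 chemokines rose with LPS in both arms. The smallest rise was that of Cxcl16, 6.06-fold in DMSO and 4.63-fold in SGC0946 cells, and the next smallest was that of Cxcl2 in SGC0946 cells, 154-fold. In DMSO cells 7 of 7 passed the quasi-likelihood test of edgeR at an adjusted p under 0.05 (Benjamini-Hochberg), where 35.4% of all genes were called higher. In SGC0946 cells 7 of 7 passed again, against 35.8% of all genes. For the 4 genes that entered the test through the LPS libraries alone this count was fixed by the filter and supports nothing. The unstimulated libraries are shared with the other comparisons of each arm. In bulk RNA, fewer cells that express a gene and less RNA per cell cannot be told apart, here and below.

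Among the neutrophil attractants, Cxcl1 was at 49.0, 44.5 and 55.6 CPM in the 3 DMSO+LPS libraries and at 0.0796 to 0.265 CPM in the unstimulated ones. All LPS libraries were above all unstimulated ones, by 7.95 ± 0.33 on the log2 scale (SE). Cxcl2, the more abundant of the pair, was at 270, 234 and 212 CPM with LPS and 0.862 to 1.58 CPM without, a rise of 7.63 ± 0.17. Its ratio to Cxcl1 after LPS was 482%, 460% and 334% of the Cxcl1 RPKM in DMSO and 479%, 430% and 281% in SGC0946 cells of mice 1, 2 and 3, so the arms overlapped and mouse 3 gave the lowest ratio in both. Cxcl3 had 268 counts over the 3 DMSO+LPS libraries and 0 over the 4 unstimulated ones, so it was at least 197-fold higher, taking 3 counts over the group as the floor. In SGC0946 cells 304 counts stood against 1, a ratio of 680 with a 95% counting interval of 121 to 26955.

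Among the interferon-inducible members, Cxcl10 was at 9991, 9865 and 9647 CPM after LPS in DMSO cells and at 10.3, 10.9, 6.93 and 12.2 CPM before. These groups stand 9.92 ± 0.24 apart on the log2 scale, a 971-fold difference. Cxcl9 rose by 10.63 ± 0.19 in DMSO and 10.72 ± 0.19 in SGC0946 cells, the first from 21 counts in 4 unstimulated libraries to 15398 in 3. Cxcl11 went from 5 counts to 2378 in DMSO cells, a ratio of 1050 with a 95% counting interval of 449 to 3238, and from 3 counts to 3884 in SGC0946 cells, a ratio of 2897 with an interval of 991 to 14053. The intervals cover counting error only and overlap between the arms. Libraries of the same mouse gave rises of 9.89, 9.79 and 10.41 for Cxcl10 in DMSO and 10.02, 10.22 and 10.03 in SGC0946 cells, on the log2 CPM scale for mice 1 to 3.

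The size of these changes depends on scaling, because LPS moved much of the RNA. With library totals in place of TMM factors the median of all genes after LPS is -0.80 in DMSO and -0.81 in SGC0946 cells, against -0.07 for both here. All 7 chemokines stay higher under both scalings and under DESeq2 size factors. Cxcl16, the smallest change, is then at 1.87 in place of 2.60 in DMSO and at 1.47 in place of 2.21 in SGC0946 cells.

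After LPS, SGC0946 cells held more Cxcl9 and Cxcl11 RNA, while Cxcl10 did not pass the test. Of the 7 members 2 were called higher by edgeR's quasi-likelihood test and none lower, against 3.86% of all genes called higher; the median of the 7 was 0.10 on the log2 scale and that of all genes -0.00. Cxcl11 was at 103, 96.9 and 98.5 CPM in DMSO+LPS and at 173, 184 and 160 CPM in SGC0946+LPS. The lowest inhibitor library was well above the highest control. The difference was 0.79 ± 0.09 (SE, log2), or 1.73-fold, with an edgeR adjusted p of 1.93e-05.

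Cxcl9 was at 687, 600 and 654 CPM in DMSO+LPS and at 1040, 753 and 1099 CPM in SGC0946+LPS, again without overlap. It was 0.57 ± 0.11 higher, or 1.49-fold (edgeR adjusted p = 0.00303). Mouse by mouse the inhibitor library was higher by 0.60, 0.33 and 0.75 for Cxcl9 and by 0.75, 0.92 and 0.70 for Cxcl11, in log2 CPM for mice 1, 2 and 3. Mouse 2 gave the smallest difference for Cxcl9 and the largest for Cxcl11. Without replicate 1 in every group Cxcl9 no longer passed (0.56, edgeR adjusted p = 0.0755), nor without replicate 3 (0.48, edgeR adjusted p = 0.0936), while Cxcl11 passed in each of the 21 alternatives.

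Cxcl10, the third interferon-inducible member, was at 9991, 9865 and 9647 CPM with DMSO and at 10079, 9873 and 9466 CPM with SGC0946. The libraries of the arms interleave, and within mice 1 to 3 the differences were 0.01, 0.00 and -0.03. Its difference was -0.00 ± 0.18 (log2), with a 95% interval of -0.39 to 0.38. The interval is wide beside the spread of the libraries, whose coefficients of variation were 1.77% with DMSO and 3.18% with SGC0946.

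The proportions among the 3 RNAs shifted accordingly. Cxcl11 RNA was 0.706%, 0.672% and 0.698% of Cxcl10 RNA by RPKM in the DMSO+LPS libraries and 1.17%, 1.27% and 1.16% with SGC0946. Cxcl9 was 2.59%, 2.30% and 2.56% of Cxcl10 with DMSO and 3.89%, 2.88% and 4.38% with SGC0946. Neither ratio overlapped between the arms. Cxcl11 relative to Cxcl9 did overlap, at 27.2%, 29.2% and 27.3% with DMSO and 30.2%, 44.2% and 26.4% with SGC0946. Ratios within a library do not depend on how libraries are scaled.

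**Figure D2:**
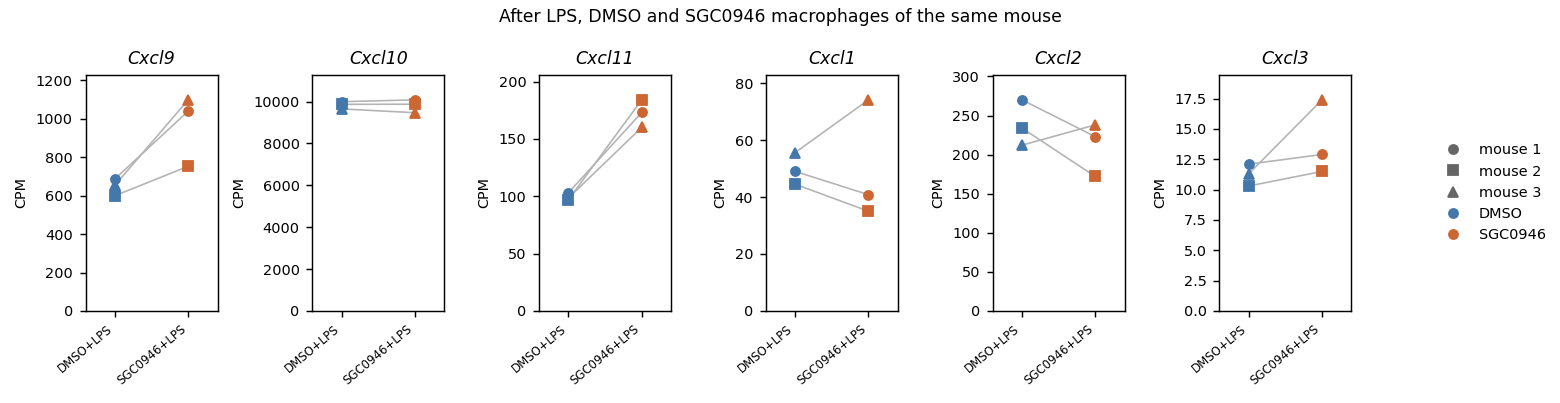
CPM after LPS in DMSO and SGC0946 macrophages, with a line joining the libraries of the same mouse (mice 1 to 3); each panel has its own axis from 0. All 3 lines climb for Cxcl9 and Cxcl11, and also for Cxcl3, whose groups overlap. The lines of Cxcl10 are level near 9466 to 10079 CPM, and those of Cxcl1 and Cxcl2 go both ways.

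The neutrophil attractants did not pass the test of the inhibitor after LPS. Cxcl1 was at 40.8, 35.0 and 74.1 CPM with SGC0946, of which mouse 3 was above and the other mice below all DMSO+LPS libraries, and its difference was -0.01 ± 0.20 (95% interval -0.41 to 0.40). Cxcl2 was at 223, 172 and 238 CPM with SGC0946 and differed by -0.18 ± 0.11 (-0.41 to 0.05). Cxcl3 was at 12.1, 10.3 and 11.3 CPM with DMSO and 12.9, 11.5 and 17.4 CPM with SGC0946, a difference of 0.30 ± 0.20 (-0.12 to 0.72). The groups overlapped for each of the 3 genes, and the SGC0946 library of mouse 3 stood highest for Cxcl1 and Cxcl3.

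Cxcl16 was higher with SGC0946 in cells that had no LPS. In unstimulated cells it was at 85.2, 60.3, 87.3 and 70.2 CPM with DMSO and at 112, 99.2, 101 and 111 CPM with SGC0946. Every inhibitor library was above every control, and all 4 mice showed the direction, by 0.39, 0.72, 0.20 and 0.67 in log2 CPM. The difference was 0.48 ± 0.11 on the log2 scale (edgeR adjusted p = 0.00689). Cxcl16 was the 1 member of 7 called in this comparison, where 4.55% of all genes were called higher.

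After GW3965 Cxcl16 was at 80.8, 58.6 and 69.9 CPM with DMSO and at 120, 102 and 98.0 CPM with SGC0946. The groups did not overlap, and the difference was 0.61 ± 0.13, or 1.53-fold (edgeR adjusted p = 0.00702), again the 1 member of 7, against 2.24% of all genes. After LPS it was at 464, 403 and 509 CPM with DMSO and at 468, 488 and 513 CPM with SGC0946, groups that overlap. The difference there was 0.10 ± 0.12 (95% interval -0.15 to 0.34; edgeR adjusted p = 0.714). The rise of Cxcl16 with LPS was smaller in SGC0946 cells by 0.39 ± 0.16, but this difference of responses did not pass (edgeR unadjusted p = 0.0243, adjusted p = 0.588).

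The control without the word reanalyzed, DMSO replicate 4, had 70.2 CPM of Cxcl16, under all 4 inhibitor libraries at 99.2 to 112 CPM. With a term for that word in the fit, Cxcl16 was 0.59 higher in unstimulated cells (edgeR adjusted p = 0.10) and 0.75 higher after GW3965 (edgeR adjusted p = 0.154), so neither passed. Without replicate 4 in every group the unstimulated difference was 0.42 (edgeR adjusted p = 0.0878), and without DMSO+GW3965 replicate 2 the difference after GW3965 was 0.50 (edgeR adjusted p = 0.0555). Zmynd15, antisense to Cxcl16, moved with it, from 7.84 ± 1.33 to 11.2 ± 1.43 CPM in unstimulated cells and from 7.89 ± 0.459 to 11.1 ± 2.15 CPM after GW3965. The part of shared reads in the result was not tested.

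**Figure D3:**
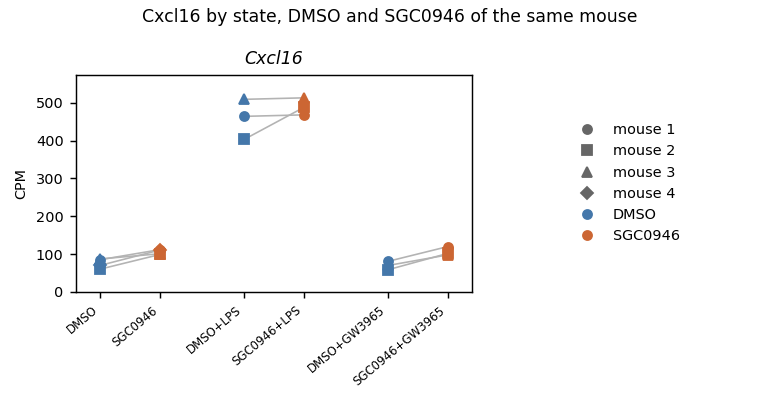
Cxcl16 in CPM for the 3 states, with lines joining DMSO and SGC0946 libraries of the same mouse and an axis from 0. The lines climb in all 4 mice without stimulation and in all 3 after GW3965, and the groups overlap after LPS at 403 to 513 CPM.

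The other 6 members did not pass the inhibitor test in unstimulated cells. Cxcl10 was at 10.3, 10.9, 6.93 and 12.2 CPM with DMSO and 9.55, 8.12, 8.85 and 19.5 CPM with SGC0946, where replicate 4 stood alone, and it differed by 0.20 ± 0.21 (95% interval -0.24 to 0.64). Cxcl2 differed by 0.19 ± 0.33 (-0.51 to 0.88). Cxcl1 rested on 10 and 13 counts, Cxcl9 on 21 and 28, Cxcl11 on 5 and 3 and Cxcl3 on 0 and 1. The 95% counting interval of the ratio ran from 0.772 to 2.61 for Cxcl9 and from 0.0985 to 3.26 for Cxcl11, so differences of the size seen after LPS were not detectable at this depth. After GW3965 the 6 did not pass either. Cxcl9 had 12 counts with DMSO and 1 with SGC0946 (edgeR adjusted p = 0.189), and Cxcl10 differed by 0.25 ± 0.34 (-0.46 to 0.96).

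**Figure D4:**
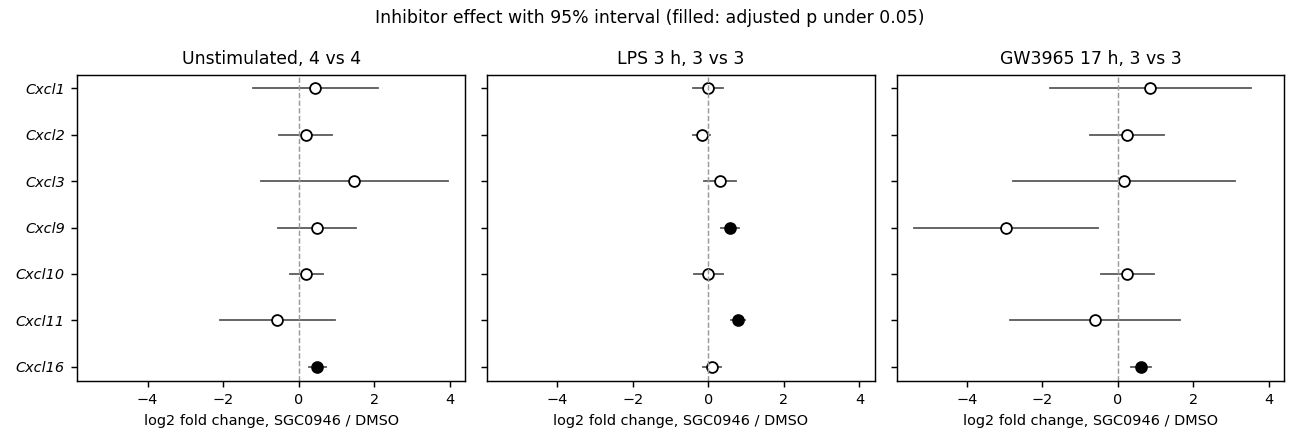
Difference between SGC0946 and DMSO cells for each chemokine in the 3 states, as log2 fold change with its 95% interval from edgeR. Filled points passed at an adjusted p under 0.05: Cxcl16 without stimulation (0.48) and after GW3965 (0.61), and Cxcl9 (0.57) and Cxcl11 (0.79) after LPS; the wide intervals belong to genes with few counts.

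None of the 7 differed between the arms in its LPS response by the test of that difference, which called 0.00832% of all genes, a single gene. DESeq2 and limma-voom called none of the 7 either, and Cxcl16 alone had an unadjusted p under 0.05. For Cxcl11 the difference of responses was 1.36 ± 0.79 (95% interval -0.28 to 3.01) and for Cxcl9 0.09 ± 0.60 (-1.15 to 1.33). Both rest on unstimulated libraries with few counts, so a greater rise and a higher starting level cannot be separated at this depth. The intervals of Cxcl10 (-0.78 to 0.38) and Cxcl2 (-1.10 to 0.37) are narrower.

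GW3965 lowered Cxcl10 in both arms. In DMSO cells it was at 3.15, 3.93 and 2.53 CPM with GW3965, below all unstimulated libraries at 6.93 to 12.2 CPM. It fell by 1.66 on the log2 scale (SE 0.28), to 0.317 of the level without it (edgeR adjusted p = 0.00144). In SGC0946 cells it was at 4.63, 3.80 and 2.92 CPM, below all unstimulated ones at 8.12 to 19.5 CPM, and fell by 1.60 (SE 0.27; edgeR adjusted p = 0.00152). The libraries of the same mouse fell by 1.66, 1.43 and 1.39 with DMSO and by 1.02, 1.06 and 1.54 with SGC0946. The difference of the responses was 0.05 ± 0.40 (95% interval -0.77 to 0.88).

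Cxcl10 was the 1 member of 7 called lower in DMSO cells, where 1.20% of all genes were. Without replicate 1 in every group it no longer passed there (fell by 1.63; edgeR adjusted p = 0.0938). In SGC0946 cells 2 of 7 were called lower, against 1.11% of all genes, Cxcl9 being the other. Cxcl9 had 28 counts in the 4 SGC0946 libraries and 1 in the 3 with GW3965, a ratio of 0.0538 with a 95% counting interval of 0.00132 to 0.326. Its fitted change of -3.78 ± 0.98 just passed (edgeR adjusted p = 0.0433) and passed in 9 of 21 alternatives. In DMSO cells Cxcl9 had 21 and 12 counts, a ratio of 0.786 with an interval of 0.352 to 1.67.

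The test of the difference between the GW3965 responses called 0% of all genes and none of the 7, by edgeR, DESeq2 or limma-voom. By edgeR, 291 genes had an unadjusted p under 0.05. Of the chemokines this was Cxcl9 alone (edgeR unadjusted p = 0.0130, adjusted p = 1.00). Cxcl16 did not pass with GW3965 in either arm, at -0.11 ± 0.12 (95% interval -0.36 to 0.13) with DMSO and 0.01 ± 0.12 (-0.23 to 0.25) with SGC0946. Cxcl2 was at -0.56 ± 0.41 and -0.49 ± 0.40 and did not pass. Cxcl1 and Cxcl11 had 5 counts or fewer in each GW3965 group and Cxcl3 had 1.

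**Figure D5:**
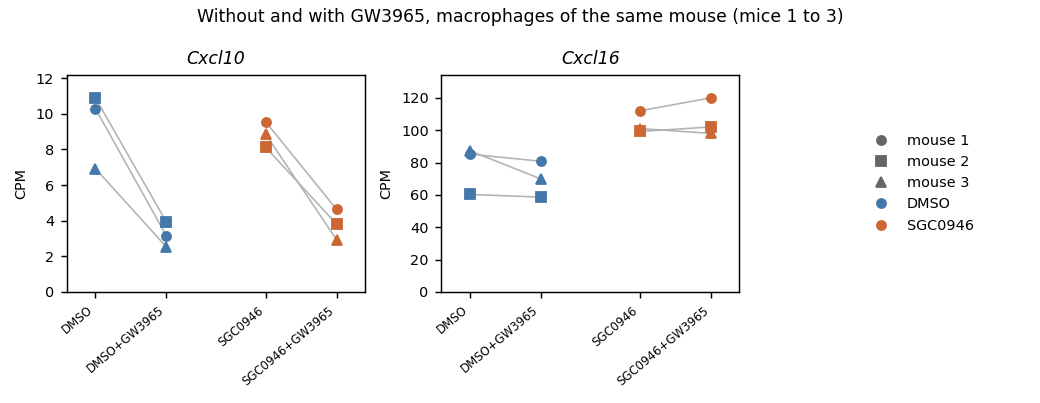
Cxcl10 and Cxcl16 in CPM without and with GW3965, with lines joining libraries of the same mouse (mice 1 to 3) within each arm and axes from 0. All 6 lines of Cxcl10 go down, to 2.53 to 4.63 CPM, while those of Cxcl16 stay within 58.6 to 120 CPM.

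The libraries held RNA of few CXC receptors, and bulk RNA does not tell which cells held it or made the ligands. Of the 8 genes listed as CXC receptors, 2 were tested. Cxcr4, the receptor of Cxcl12, fell with LPS by 5.03 on the log2 scale in DMSO and 5.09 in SGC0946 cells, from 143 ± 14.4 to 4.34 ± 0.238 CPM and from 172 ± 10.6 to 5.04 ± 0.312 CPM. Cxcr3, the receptor of Cxcl9, Cxcl10 and Cxcl11, fell by 1.21 and 1.78, from 8.43 ± 0.567 to 3.55 ± 1.31 CPM and from 12.3 ± 1.48 to 3.62 ± 0.972 CPM. Both falls held with library totals. So the RNA of Cxcl10 and the RNA of Cxcr3 moved in opposite directions with LPS, in libraries that did not overlap. Of all genes 74.1% and 74.6% were called with LPS in the DMSO and SGC0946 arms. Cxcl9 and Cxcl11 rose too, but the filter fixed their direction, so they add nothing to this contrast.

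With SGC0946 Cxcr3 was higher in unstimulated cells, by 0.55 ± 0.14 (edgeR adjusted p = 0.0144), with every inhibitor library above every control. It was not after LPS (-0.02 ± 0.24). Unstimulated Cxcr4 stood 0.27 ± 0.09 higher without passing (edgeR adjusted p = 0.0634, and 0.0404 with library totals). With a term for the word reanalyzed, the calls among all genes in unstimulated cells went from 1048 to 196. Genes outside the 7 chemokines, here and below, were not checked singly with that term. Cxcr2, the receptor of the neutrophil attractants and itself a marker of neutrophils, had 28 counts over 4 DMSO and 7 over 4 SGC0946 libraries and was not tested. Cxcr6, the receptor of Cxcl16, had 4 to 8 counts per group. Cxcr5 had 7 to 33, Cxcr1 up to 6, and Ackr1 and Ackr3 each had 1 count in all.

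Of 8 other CXC ligands 3 were tested. Pf4, the platelet factor also made by macrophages, was at 143 RPKM in unstimulated and 140 RPKM in LPS-treated DMSO cells. It rose with LPS by 0.67 in DMSO and 0.71 in SGC0946 cells on the TMM scale, a call that was lost with library totals, where it stood at -0.06 and -0.03. In SGC0946 cells it fell with GW3965 by 0.32 (edgeR adjusted p = 0.0314). Ppbp rose with LPS in SGC0946 cells by 1.64 ± 0.53, from 22 counts in 4 libraries to 31 in 3 that overlapped, and not with library totals (0.90, edgeR adjusted p = 0.113). Cxcl14 was at 3.25 to 4.18 CPM in the group means and passed in no comparison on the TMM scale. Cxcl13 and Cxcl15 had 0 counts in every library, although Cxcl15 lies between Cxcl3 and Cxcl1, and Cxcl5, Cxcl12 and Cxcl17 had 9 counts or fewer per group.

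Genes of LPS sensing and NF-kB, the pathway that drives the neutrophil attractants, moved with LPS. Of 20 tested, 16 rose and 3 fell with LPS in DMSO cells (median 2.73), and 16 rose and 3 fell in SGC0946 cells (median 2.72). Of all genes 74.1% and 74.6% were called with LPS in these arms, and 35.4% and 35.8% were called higher. The median of all genes was -0.07 in both. With library totals 14 of the 20 rose and 6 fell in each arm. Those with the smallest p were Nfkbiz, a co-activator of secondary response genes (6.83 in DMSO and 6.80 in SGC0946 cells), the inhibitor Nfkbia (4.94 and 5.16) and the subunit Nfkb1 (3.16 and 3.12). After LPS 2 of 20 were called with SGC0946, where 7.13% of all genes were called in either direction. Ticam1, the TRIF adaptor, was lower by 0.43 (SE 0.09; edgeR adjusted p = 0.00519) and its receptor Tlr4 higher by 0.25 ± 0.07 (edgeR adjusted p = 0.0319). In unstimulated cells 1 of 20 was called with SGC0946, where 8.72% of all genes were called in either direction. This was Nfkbia, lower by 0.25 (SE 0.07; edgeR adjusted p = 0.0213).

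Of 20 genes of the interferon axis, which acts on Cxcl9, Cxcl10 and Cxcl11, 18 rose and 1 fell with LPS in DMSO cells (median 2.07). In SGC0946 cells 18 rose and 2 fell (median 2.03). Beside this, 74.1% and 74.6% of all genes were called with LPS, 35.4% and 35.8% were called higher, and their median was -0.07 in both arms. Jak2 (4.65 and 4.60), the feedback inhibitor Socs1 (7.46 and 7.69) and the transcription factor Irf1 (5.06 and 4.88) had the smallest p. With library totals 17 rose and 2 fell in DMSO cells and 16 rose and 2 fell in SGC0946 cells. After LPS 1 of 20 was called with SGC0946, a share near the 7.13% of all genes. This was Irf8, a transcription factor of macrophage and dendritic cell lineages, which went from 1218 to 1416 CPM, 0.22 ± 0.06 higher (edgeR adjusted p = 0.0429; 0.0542 with DESeq2 size factors, which ends the call). Neither Ifnb1 (-0.17 ± 0.24) nor Irf1 (0.04 ± 0.10) passed, which were named after their values were seen. Ifngr1 was the 1 gene of 20 called with SGC0946 in unstimulated cells, where 8.72% of all genes were called. It was higher by 0.32 ± 0.08 (edgeR adjusted p = 0.0162). With GW3965 Ifngr1 rose by 0.40 ± 0.09 and Irf8 by 0.24 ± 0.06 in DMSO cells, where 2.55% of all genes were called in either direction. In SGC0946 cells, where 2.42% of all genes were called, Irf8 was called at 0.24 ± 0.06 (edgeR adjusted p = 0.0411). That call was lost with DESeq2 size factors (0.0558) and with library totals (0.0602).

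Chemokine mRNAs carry AU-rich elements and are short-lived, and 9 genes acting on their decay were tested. Zfp36, whose protein tristetraprolin destabilises such mRNAs, rose with LPS by 3.08 and 2.87, Zc3h12a by 2.94 and 2.74, and Zfp36l2 fell by 2.78 and 3.37, in DMSO and SGC0946 cells. After LPS 3 of 9 were called with SGC0946, against 7.13% of all genes. Zfp36 was lower by 0.34 (SE 0.07; 560 against 710 CPM; edgeR adjusted p = 0.00468), Zfp36l2 lower by 0.50 (SE 0.10; edgeR adjusted p = 0.00268) and Khsrp, also a decay factor, higher by 0.21 ± 0.05 (edgeR adjusted p = 0.0159). In unstimulated cells 1 of 9 was called with SGC0946, where 8.72% of all genes were called. This was Il17ra, the receptor whose signal stabilises chemokine mRNA, 0.64 lower (SE 0.11; edgeR adjusted p = 0.000548).

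Of 6 proteases that shed Cxcl16 or trim chemokines at the N terminus, Adam17 rose with LPS by 1.51 and 1.46 and fell with GW3965 by 0.21 and 0.22, in DMSO and SGC0946 cells. Mmp12, the macrophage elastase, was higher with SGC0946 in all 3 states, by 1.05 ± 0.20, 1.09 ± 0.23 and 0.92 ± 0.23, and Dpp4, which trims the ligands of CXCR3, by 1.41 ± 0.39 in unstimulated cells, from 0.371 to 1.01 CPM. Adam10, the main constitutive sheddase of Cxcl16, rose with LPS in SGC0946 cells by 0.14 ± 0.06 on the TMM scale and was at -0.60 with library totals. Mmp8 fell with GW3965 by 0.65 and 0.89, and Mmp9 was 0.84 lower with SGC0946 after GW3965 (SE 0.22; edgeR adjusted p = 0.0393). Counts of RNA say nothing of the activity of these enzymes.

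Markers of other cell types moved with the inhibitor in the same libraries, where 8.72%, 7.13% and 3.64% of all genes were called in either direction in the unstimulated, LPS and GW3965 states. Of 16 neutrophil and granulocyte precursor genes 7 were tested and 5 were lower with SGC0946 in each state. The median of the 7 was -2.64, -2.05 and -2.88 on the log2 scale in these states. In unstimulated cells S100a9 went from 11.8 to 1.26 CPM, Ngp from 8.87 to 0.839 and Ltf from 7.09 to 1.20. S100a8 went from 6.00 to 0.939 CPM there and Lcn2 from 3.16 to 0.252. Mmp8, not called, was at 33.0 CPM with DMSO and 31.1 CPM with SGC0946 and is part of the sum. The list summed to 124 to 140 CPM with DMSO and 78.2 to 106 CPM with SGC0946 unstimulated, 232 to 269 and 161 to 209 CPM after LPS, and 93.4 to 111 and 52.3 to 73.1 CPM after GW3965. Mpo, Ctsg, Ly6g and Fcnb were at 0 in all SGC0946+LPS libraries and Elane and Cxcr2 in all DMSO+LPS ones. Of 9 dendritic cell genes 6 were tested, of which 3, 2 and 1 were higher with SGC0946 in the unstimulated, LPS and GW3965 states. They summed to 45.9 to 53.5 CPM in DMSO+LPS and 78.7 to 110 CPM in SGC0946+LPS, with Siglech at 0 in the former and Flt3 in the latter.

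Of 10 T and NK cell genes 2 were tested, Cd4 and Lck. Cd4 was higher with SGC0946 in all 3 states and Lck after LPS, and Lck also rose with LPS in both arms. That list summed to 8.47 to 12.8 CPM with DMSO and 13.9 to 18.8 CPM with SGC0946 in unstimulated cells. After LPS it summed to 25.1 to 31.1 CPM with DMSO and 45.8 to 55.0 CPM with SGC0946. Cd3e, Cd3d, Cd8a, Nkg7, Ncr1 and Gzma were at 0 in all LPS libraries. Of 8 B cell genes 2 were tested, of which Cd22 was higher with SGC0946 in all 3 states. Of 8 stromal genes 1 was tested and the sum was 9.41 CPM at most. The part of these cell types in the Cxcl9, Cxcl11, Cxcl16 and Cxcr3 results was not tested.

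Over the 20 libraries the profiles most like each chemokine by Pearson's r of log2 CPM were as follows, given as description because the LPS step sets all of them. Cxcl1 was most like Tmem67 (0.995), Cd44 (0.994) and Cemip2 (0.994), and Cxcl2 like Clec4e (0.996), Slco3a1 (0.996) and Cyria (0.995). Cxcl3 was most like Ankrd17, Zfp800 and Malt1 (0.997 each). Cxcl9 was most like Nos2 (0.996), Cd69 (0.996) and Zfp513 (0.995), Cxcl10 like Adam17 (0.998), Cd69 (0.998) and Tlr2 (0.996), and Cxcl11 like Car13, Ppm1k and Cflar (0.998 each). Cxcl16 had the lowest values, 0.991 with Tmem168, 0.989 with Mmp13 and 0.988 with Src. Among the chemokines themselves r was 0.96 to 0.99 over all libraries. With the group means taken out, the 20 libraries gave values from -0.49 (Cxcl3 with Cxcl10) to 0.66 (Cxcl9 with Cxcl10). Among the neutrophil attractants Cxcl1 with Cxcl3 gave 0.48, Cxcl1 with Cxcl2 0.08 and Cxcl2 with Cxcl3 0.05. Among the interferon-inducible members Cxcl10 with Cxcl11 gave 0.14 and Cxcl9 with Cxcl11 -0.18. Pairs between these sets went up to 0.36 (Cxcl2 with Cxcl9). Such values also hold the counting noise of the libraries without LPS.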

How the data were processed

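RNA-seq was done on 20 libraries of 6 groups. The submitters' processing notes name STAR 2.5.2b, SAMtools 1.3.1 and the build mm10. Which program counted reads, on which annotation and strand, is not stated in the sources used here. The authors deposited read counts for 35745 RefSeq transcripts and, in a second table, the RPKM of the same transcripts, which matches the counts once these are scaled by transcript length and by the sum of the library (largest relative deviation 2.8e-05 over 780 transcripts). A deposited sample sheet, used for its Mouse column alone, gives a mouse for each of the 20 libraries, and the number equals the replicate number in all 20. Symbols came from the RefSeq gene table of GRCm38.p6, which named 35440 transcripts; the 305 others held 1.17% of counts and were not tested. The transcript with the highest total was kept for each of 24342 symbols (57.3% of counts).

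Tests used edgeR 4.0.16 in R 4.3.3, by quasi-likelihood on the 20 libraries together, with a mean for each group, scaling by TMM and a count minimum of 10 in filterByExpr, which left 12013 genes (biological coefficient of variation 8.87%). P-values were adjusted by Benjamini-Hochberg over all genes tested, with 0.05 as threshold. Each SE was obtained from the log2 fold change and its F value. The factors of TMM were 0.686 to 0.716 in LPS libraries and 1.14 to 1.19 in the others. CPM values are counts over TMM-scaled totals, and log2 CPM adds a prior count of 2. The scripts were tested on simulated data. DESeq2 1.42.0, limma 3.58.1 (voom), other scalings, filters, designs and left-out libraries were alternatives. Libraries of a mouse share it by the sample sheet: deviations from group means correlated at a median of 0.20 (0.06 to 0.50, 46 pairs) within a mouse and -0.12 between mice (120 pairs).

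The members, the gene lists and the rule for naming genes were chosen with earlier results of these data known. The rule names all 7 members in every comparison, every receptor and other ligand, and the 3 genes most like each member. In each further list it names the 3 called genes with the smallest p, but this was not done for every comparison. Among the calls not described above are, with GW3965, Nfkb1 and Nfkbia (lower, DMSO cells) and Tnfaip3 (higher, SGC0946 cells). Another is Il17ra, lower with SGC0946 after GW3965. Genes of small count named outside the rule are marked. Intervals of ratios cover counting error only.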

Additional observations from a re-analysis of the deposited data

Results flagged for a closer look

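The Cxcl10 level in SGC0946 replicate 4 stood far from the other 3 libraries of that group, at 19.5 CPM (273 counts) where the nearest was 9.55 CPM; the gap is 0.874 of the range of the group. Cxcl3 in SGC0946 replicate 2 stood apart at 0.0745 CPM, which is 1 count against 0 in the other 3 libraries. For each chemokine both groups of 4 libraries were examined, 14 in all. Chance marks about 1 in 20 groups of normally distributed values, a rate that does not hold for counts near 0. A group with 1 count in 1 library and 0 in the others is always marked. Cxcl3 with DMSO, at 0 counts throughout, could not be. The 14 tests of a difference between the arms in the LPS or GW3965 response called none.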

How the results depend on the processing

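No result changed its direction while called. The replicate block, a term for the mouse, changed no count of called chemokines; it moved the count of all genes called from 437 to 703 for SGC0946 after GW3965, from 306 to 531 for GW3965 in DMSO cells and from 1 to 6 for the difference of LPS responses. Cxcl11 with SGC0946 after LPS passed in every alternative run, as did Cxcl2, Cxcl10 and Cxcl16 with LPS.

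For GW3965 in SGC0946 cells, 2 called chemokines became 1 with library totals, with limma-voom, with transcripts summed and without replicates 2 and 4 in every group, and 0 with only the compared groups (Cxcl10 fell by 1.60; adjusted p = 0.0777 by edgeR; Cxcl9 did not pass the filter on low counts there and was not tested). Leaving out 1 replicate at a time gave 1 to 2. For SGC0946 in unstimulated cells, 1 became 0 with the term for the word reanalyzed and without replicates 2 and 4 in every group (Cxcl16 0.30; edgeR adjusted p = 0.150), and leaving out replicates gave 0 to 1. After GW3965 1 became 0 with that term, and 0 to 1 remained called on leaving out replicates, among them replicate 1 (Cxcl16 0.64; edgeR adjusted p = 0.0626) or 3 (0.67; edgeR adjusted p = 0.0547) in every group. After LPS leaving out replicates gave 1 to 2, and for GW3965 in DMSO cells 0 to 1. Leaving out replicates 2 and 4 was chosen after results of these data were seen. The causes were not tested, beside the smaller number of samples or genes that the construction of these alternatives brings.

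With library totals 18.6% of called genes were higher with LPS in DMSO cells (47.8% with TMM) and 18.5% in SGC0946 cells (47.9%); the shares were 62.6% against 52.1% for SGC0946 in unstimulated cells, and 36.1% against 52.9% and 39.2% against 54.3% for GW3965 in DMSO and SGC0946 cells. Counts of all genes called went from 1048 to 196 and from 437 to 66 with the term for the word reanalyzed, for SGC0946 unstimulated and after GW3965. With only the compared groups they went from 437 to 164 for SGC0946 after GW3965, from 306 to 888 and from 291 to 88 for GW3965 in DMSO and SGC0946 cells. DESeq2 gave 520 in place of 306, and 37 in place of 1 for the difference of LPS responses, where no filter gave 11. Depth limits Cxcl1, Cxcl3, Cxcl9 and Cxcl11 without LPS, where 1 count decides a fold.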
